A study of Mus musculus with 2 samples.

Results

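The enzymes of glycolysis, the pentose phosphate pathway and the citrate cycle were followed as 37 genes chosen by symbol, out of 16906 genes in the deposited table. They comprised 14 genes of glycolysis, 2 of lactate dehydrogenase, 4 of the pyruvate dehydrogenase complex, 5 of the pentose phosphate pathway and 12 of the citrate cycle or its cytosolic counterparts. All 37 symbols were found once each, with a mean level of at least 5 FPKM, fragments counted per kilobase of transcript and normalised for library size.

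RNA was sequenced from mammary luminal cells that were sorted by flow cytometry from C57BL/6 mice 8 weeks old. The CKO library came from K8-CreERT2;miR-200c/141-flox/flox mice, in which tamoxifen activates a Cre recombinase driven by the keratin 8 promoter to delete the miR-200c/141 cluster. The Ctrl library came from miR-200c/141-flox/flox mice, which carried the same floxed alleles without the Cre driver and also received tamoxifen, so effects of Cre and of the deletion cannot be told apart. Each group is 1 library of about 20000 cells, and the number of mice behind it is not stated. The labels place the harvest 4 weeks after tamoxifen in one field and 3 days after it in another.

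Glycolysis splits glucose into pyruvate in the cytosol, with hexokinase, phosphofructokinase and pyruvate kinase as its regulated steps. Lactate dehydrogenase turns pyruvate into lactate, while the pyruvate dehydrogenase complex, inside the mitochondrion, turns pyruvate into acetyl-CoA for the citrate cycle. The pentose phosphate pathway branches off at glucose 6-phosphate and supplies NADPH and ribose, and in the mammary gland that NADPH serves the synthesis of milk fat. Several steps are encoded by more than 1 gene, and the isozymes differ in tissue range, regulation or compartment.

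The comparison of CKO with Ctrl asked whether the RNA of these enzymes differed once the cluster was removed from luminal cells. No enzyme reached a 1.5-fold difference, and the summed level of the 37 genes was 3925 FPKM in CKO and 3892 FPKM in Ctrl. The member furthest from equality was Hk2, an inducible hexokinase, at 10.7 FPKM in CKO and 15.5 FPKM in Ctrl. Small ratios toward CKO were seen for Idh2, Idh3b, Idh3g, Suclg1, Aldoc, Eno1 and Tpi1, and small ratios toward Ctrl for Pkm, Mdh1, Taldo1 and Pgd. With 1 library per group no test across samples exists, so whether these differences exceed the variation among animals is unknown.

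About 11500000 reads lay behind the CKO values and 12500000 behind the Ctrl values, as inferred from the p-values in the table. Ratios are given as log2 of CKO over Ctrl with 0.5 FPKM added to both. Many are followed in brackets by a 95% counting interval of the read ratio. This is an exact conditional binomial (Clopper-Pearson) interval that covers counting error only. A gene was counted as higher or lower at a mean of at least 1 FPKM with at least 1.5-fold and an interval excluding a ratio of 1.

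Luminal markers were abundant in both libraries. Krt8 stood at 4476 FPKM in CKO and 3871 FPKM in Ctrl, and all 9 listed luminal markers passed 1 FPKM, summing to 18768 FPKM in CKO and 14082 FPKM in Ctrl. Of these, 1 was counted as higher (Krt18, at 10398 FPKM in CKO and 6607 FPKM in Ctrl) and 0 as lower, while Cdh1, Prlr and Elf5 had log2 ratios of -0.10, -0.30 and -0.26 with intervals below a ratio of 1. Basal myoepithelial markers were present at lower levels, and 7 of 8 measured ones were counted as higher in CKO and 1 as lower, beside 2.29% and 3.03% of all 11667 measured genes, with a summed level of 251 FPKM in CKO and 135 FPKM in Ctrl. Adipocyte markers summed to 80.2 FPKM in CKO and 60.4 FPKM in Ctrl, with 0 of 3 measured ones counted as higher and 1 as lower (Pparg, at 0.59 FPKM in CKO and 1.43 FPKM in Ctrl). The other measured ones had intervals above a ratio of 1: Fabp4 was at 44.2 FPKM in CKO and 33.4 FPKM in Ctrl, and Lipe at 34.6 FPKM in CKO and 24.3 FPKM in Ctrl. The other lists had 0 counted members: muscle (2 measured) summed to 7.09 FPKM in CKO and 6.79 FPKM in Ctrl, erythroid (2 measured) to 8.65 FPKM in CKO and 7.97 FPKM in Ctrl, and leukocyte (4 measured) to 20.8 FPKM in CKO and 16.7 FPKM in Ctrl. Endothelial markers (6 measured) summed to 35.5 FPKM in CKO and 32.9 FPKM in Ctrl, and fibroblast markers (4 measured) to 43.1 FPKM in CKO and 40.8 FPKM in Ctrl. The leukocyte marker Ptprc was at 0.23 FPKM in CKO and 0.21 FPKM in Ctrl, Cd68 at 9.97 FPKM in CKO and 8.49 FPKM in Ctrl, and Lyz2, with an interval above a ratio of 1, at 6.57 FPKM in CKO and 4.42 FPKM in Ctrl. The adipocyte marker Plin1 was at 0.05 FPKM in CKO and 0.17 FPKM in Ctrl, and the muscle myosin gene Myh1 was listed at the floor of 0.01 FPKM in both. The part of these other cells in the enzyme ratios was not tested, and in such bulk RNA fewer cells of a type and less RNA per cell cannot be told apart.

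The microRNAs that define the deletion are shown here because their seeds were searched for in the enzyme transcripts. MicroRNAs pair through the seed (bases 2 to 8, in capitals) with sites in target messenger RNAs, usually in the 3' UTR. The cluster lies on chromosome 6 of GRCm38.p6, between 124717914 and 124718390 on the minus strand. Other family members, encoded on chromosome 4 and not deleted, carry the same seeds. The mature sequences from RefSeq fall into a group with the seed of miR-200c and a group with the seed of miR-141.
mmu-miR-200c-3p: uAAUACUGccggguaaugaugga
mmu-miR-200b-3p: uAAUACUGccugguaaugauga
mmu-miR-429-3p: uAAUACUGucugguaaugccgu
mmu-miR-141-3p: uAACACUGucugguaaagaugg
mmu-miR-200a-3p: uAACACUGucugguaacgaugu

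Few of the enzyme transcripts carried a seed match. With the longest 3' UTR per gene taken from GENCODE M21 and read on the transcript strand, CAGTATT for miR-200c-3p was found in 0 of 37 members and CAGTGTT for miR-141-3p in 3. This is 8.11% of the members with either 7-mer, beside 30.1% of 11153 measured genes with a 3' UTR. The members' 3' UTRs were also shorter, with a median of 694 bases beside 1166 bases over all measured genes, and the part of UTR length in this share was not tested. The sites, in 30-base windows with the match in capitals, lie in the last exon of each gene. The window in Dlat is at chr9:50634678-50634707 on the minus strand in exon 14 of 14. The window in Idh2 is at chr7:80094908-80094937 on the minus strand in exon 11 of 11. The window in Pfkm is at chr15:98132118-98132147 on the plus strand in exon 23 of 23.
Dlat: agacgttagaaaCAGTGTTttgggtcaaga
Idh2: acctcagacagtCAGTGTTctgcatactgt
Pfkm: atcatggcttctCAGTGTTctagcccagcc

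The genes with a miR-141-3p match showed no common direction. Idh2, which makes NADPH in the mitochondrion, had a log2 ratio of 0.23 (0.10 to 0.36). Pfkm, the muscle-type phosphofructokinase, had one of -0.13 (-0.34 to 0.08), and Dlat, the acetyltransferase core of the pyruvate dehydrogenase complex, one of -0.10 (-0.27 to 0.06). The interval of Idh2 alone among these 3 excluded a ratio of 1.

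The enzymes were abundant, and their order was close to identical in both libraries. Levels ran from 6.17 FPKM (Idh1) to 663 FPKM (Gapdh) in CKO, and from 6.96 FPKM (Idh1) to 653 FPKM (Gapdh) in Ctrl. The median member was at 60.3 FPKM in CKO and 61.3 FPKM in Ctrl, beside 11.7 FPKM in CKO and 12.1 FPKM in Ctrl over the 11667 genes with a mean of at least 1 FPKM. Gapdh, Pkm, Aldoa and Ldha were the 4 highest in both libraries, and no member moved by more than 3 places in the order of the 37. Together the enzymes held 0.756% of the reads in CKO and 0.754% in Ctrl.

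**Figure D1:**
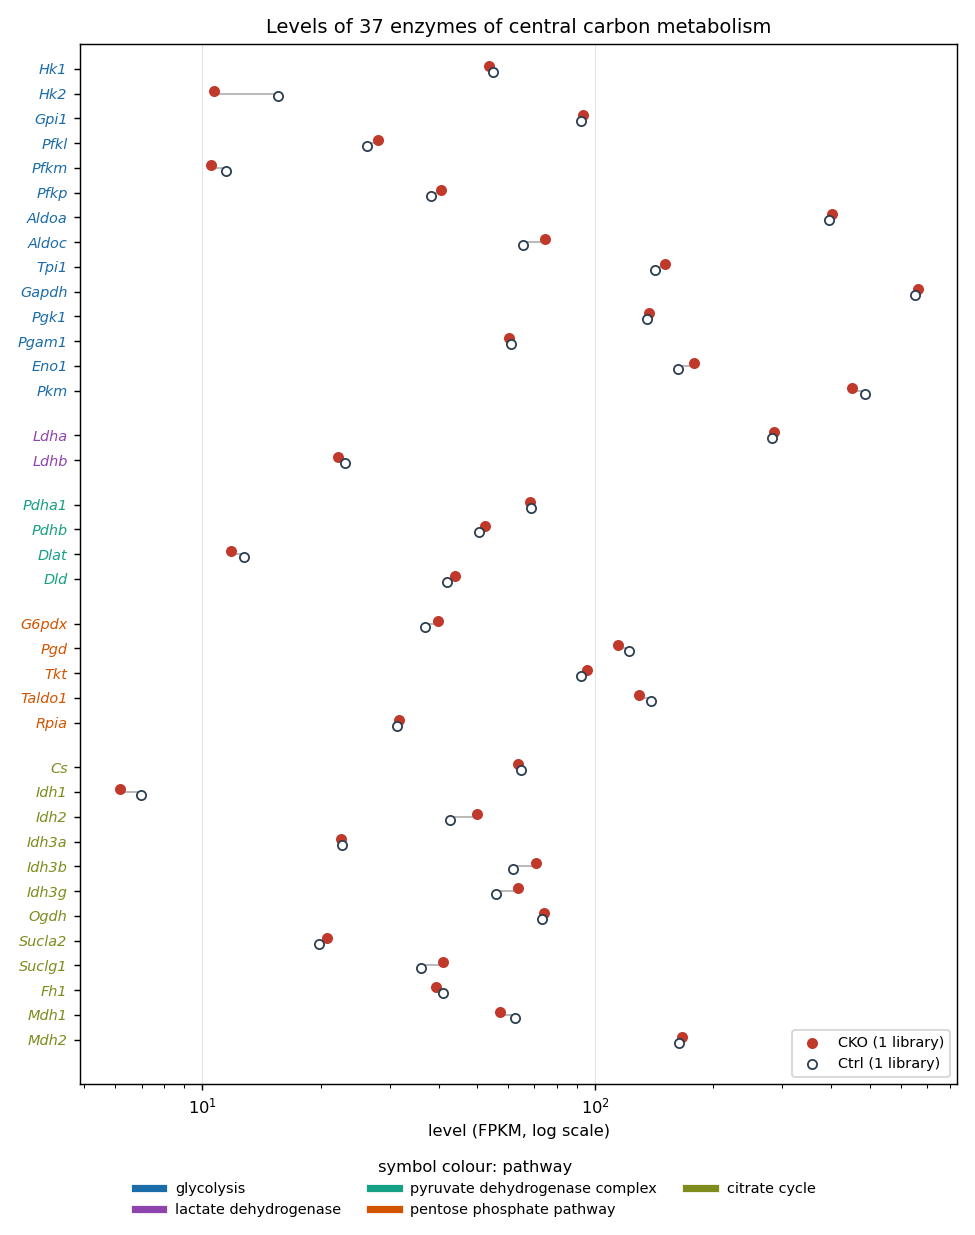
Level of each of the 37 enzymes in FPKM (log scale) in the CKO library (filled red) and the Ctrl library (open), 1 library each, with symbols coloured by pathway. The paired points nearly coincide for most genes, from Idh1 at 6.17 FPKM in CKO and 6.96 FPKM in Ctrl to Gapdh at 663 FPKM in CKO and 653 FPKM in Ctrl, and Hk2 shows the widest gap.

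Of the 37 enzymes 0 were counted as higher and 0 as lower, beside 2.29% of all 11667 measured genes counted as higher and 3.03% as lower. The median log2 ratio was 0.02 for the members and -0.03 for all measured genes. The middle of the members' log2 ratios (the quartiles) ran from -0.05 to 0.08, and that of all genes from -0.19 to 0.12. The median size of the log2 ratio, regardless of sign, was 0.07 for the members, 0.15 for all measured genes and 0.13 for the 8631 genes with a mean of at least 5 FPKM. Of the members, 22 had a log2 ratio above 0 and 15 below it.

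The counting intervals bound how far the libraries could differ for each enzyme. For 36 of 37 members the whole interval lay within 1.5-fold of equality, beside 72.1% of all measured genes, and for 32 of 37 it lay within 0.32 of 0 on the log2 scale, beside 38.7%. The half-width was 0.04 on the log2 scale for Pkm, with about 11894 reads in CKO and 13966 in Ctrl, and 0.31 for Idh1, which had the fewest reads. The members were more abundant than most genes, and the part of abundance in these shares was not tested. Intervals lay wholly above a ratio of 1 for 7 members (18.9%), beside 16.5% of all genes, and wholly below it for 5 (13.5%), beside 23.6%. No member (0 of 37) carried an up or a down call in the authors' deposited table, beside 0.615% of all genes called up and 0.639% called down. That table gives 4 members a false discovery rate of at most 0.001 (Hk2, Pkm, Aldoc and Eno1), 10.8% of the members beside 10.6% of all genes, in a test of 1 library against the other.

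**Figure D2:**
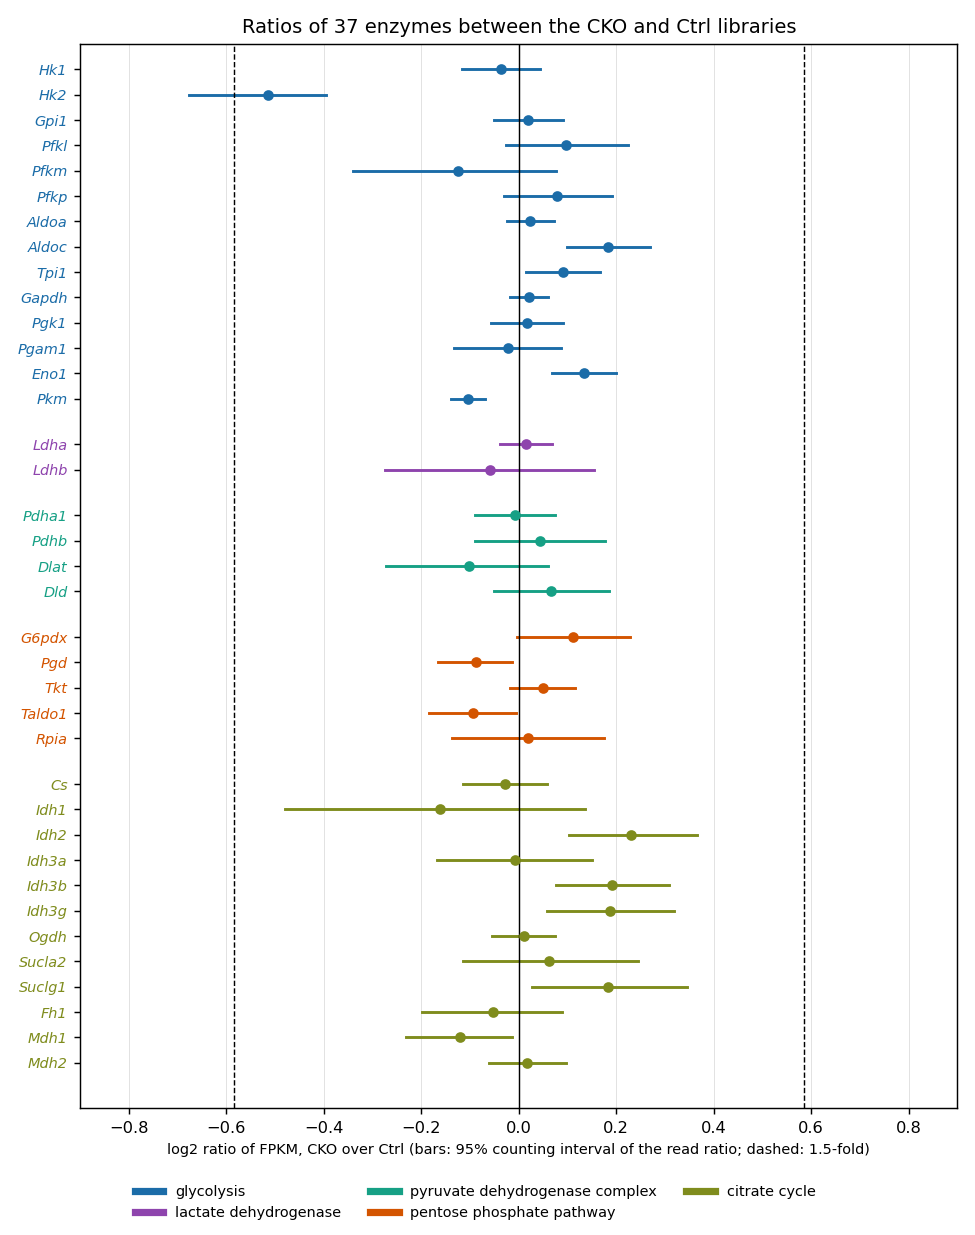
Log2 ratio of FPKM, CKO over Ctrl, for each enzyme (points) with its 95% counting interval (bars), coloured by pathway; solid line, no difference; dashed lines, 1.5-fold. The interval of Hk2 (-0.68 to -0.40) is the only one that crosses a dashed line, while 25 intervals hold a ratio of 1.

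**Figure D3:**
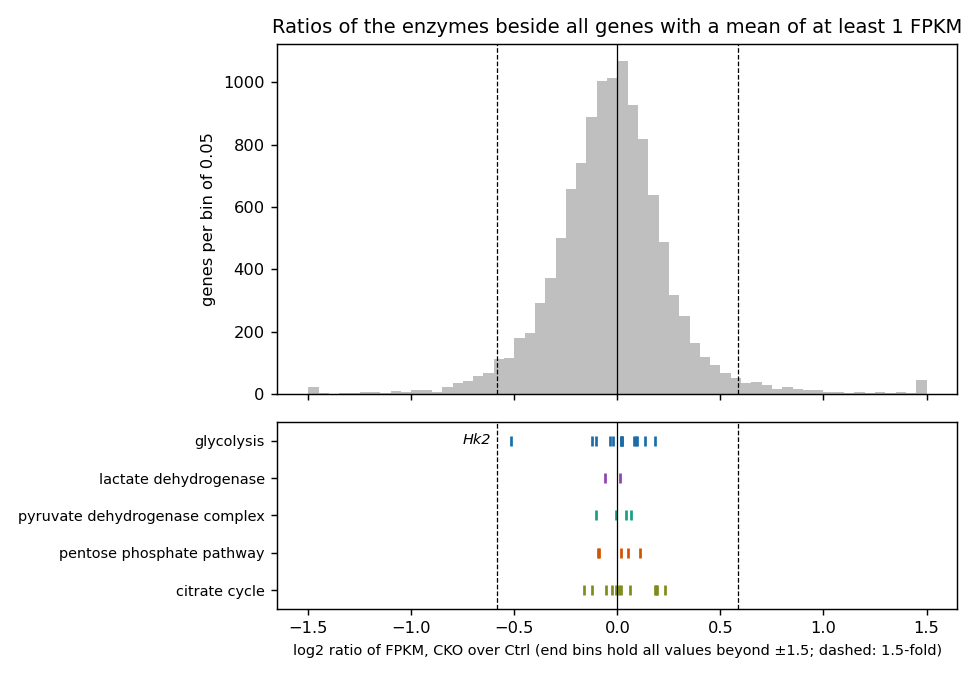
Above, histogram of log2 ratios (CKO over Ctrl) of all 11667 genes with a mean of at least 1 FPKM; below, each enzyme as a tick by pathway. Hk2 at -0.51 stands apart from the other 36 enzymes, which lie between -0.16 and 0.23.

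Glycolysis opens with hexokinase, which traps glucose as its phosphate, and here the pair of isozymes differed in their ratios. Hk1, the widely expressed form, was the main hexokinase RNA at 53.7 FPKM in CKO and 55.1 FPKM in Ctrl, a log2 ratio of -0.04 (-0.12 to 0.04). Hk2, an inducible form that responds to insulin and hypoxia in many tissues, was at 10.7 FPKM in CKO and 15.5 FPKM in Ctrl, or about 679 reads in CKO and 1075 in Ctrl. Its log2 ratio of -0.51 (-0.68 to -0.40) is 1.43-fold lower in CKO, short of the 1.5-fold rule, with an interval that reaches past it. In the authors' deposited table the false discovery rate of Hk2 is 7.56e-13. With a log2 ratio of 0.32 as the limit in place of 1.5-fold, Hk2 would be the 1 member counted as lower, beside 10.5% of all measured genes, and 0 members would be counted as higher, beside 6.34%.

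The Hk2 share of hexokinase FPKM was 16.6% in CKO and 22.0% in Ctrl. The log2 balance of Hk2 against Hk1, in which library size and the length divisor of FPKM cancel, was -0.48 (-0.66 to -0.34). A trend of the ratios with transcript length would not cancel, as Hk2 has 5524 bases and Hk1 3841. The part of such a trend in this balance was not tested. Hexokinase RNA as a whole, Hk1 and Hk2 together, was at 64.4 FPKM in CKO and 70.6 FPKM in Ctrl, with a log2 ratio of summed reads of -0.16 (-0.23 to -0.09). The Hk2 locus (Entrez gene 15277; chromosome 6, 82725025 to 82774454, GRCm38.p6) is 41943 kb from the deleted cluster, and its 3' UTR holds no match to either seed.

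Phosphofructokinase, the committing step, was shared unequally among 3 genes, in similar proportions in both libraries. Pfkp made up 51.2% of their FPKM in CKO and 50.4% in Ctrl, and Pfkm 13.3% in CKO and 15.1% in Ctrl. Pfkp, the platelet-type form, was at 40.5 FPKM in CKO and 38.3 FPKM in Ctrl. Pfkl, the liver-type form, was at 28.1 FPKM in CKO and 26.2 FPKM in Ctrl, and Pfkm at 10.5 FPKM in CKO and 11.5 FPKM in Ctrl. All 3 intervals held a ratio of 1. The log2 balance of Pfkp against Pfkl was -0.02 (-0.19 to 0.15) and that of Pfkm against Pfkl -0.22 (-0.47 to 0.01).

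Aldolase cleaves the sugar phosphate, and its minor isozyme was slightly higher in CKO. Aldoc, best known as the brain form, was at 74.5 FPKM in CKO and 65.6 FPKM in Ctrl, a log2 ratio of 0.18 (0.10 to 0.27). Aldoa, the main form, was at 401 FPKM in CKO and 394 FPKM in Ctrl, with an interval that held a ratio of 1. The share of Aldoc in the FPKM of the pair was 15.7% in CKO and 14.3% in Ctrl, and the log2 balance of Aldoc against Aldoa was 0.16 (0.06 to 0.26).

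Gpi1, Gapdh, Pgk1, Pgam1 and Tpi1, each the only member for its step of glycolysis, lay close to equality. Gpi1, the isomerase that follows hexokinase, was at 93.4 FPKM in CKO and 92.2 FPKM in Ctrl. Gapdh, the oxidising step and a common reference gene, was at 663 FPKM in CKO and 653 FPKM in Ctrl, a log2 ratio of 0.02 (-0.02 to 0.06). Pgk1, the first ATP-forming kinase, was at 137 FPKM in CKO and 135 FPKM in Ctrl, and the mutase Pgam1 at 60.3 FPKM in CKO and 61.3 FPKM in Ctrl. None of these 4 intervals excluded a ratio of 1. Tpi1, the triose phosphate isomerase, was at 151 FPKM in CKO and 142 FPKM in Ctrl, a log2 ratio of 0.09 (0.01 to 0.17).

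Tpi1 and Gapdh are the members nearest to the deleted cluster. Tpi1 (Entrez gene 21991, chromosome 6, 124810586 to 124814158) lies 92.2 kb away and Gapdh (Entrez gene 14433, chromosome 6, 125161852 to 125166467) 443 kb away. The neuronal enolase gene Eno2, which is no member, lies 41.7 kb away and was at 3.40 FPKM in CKO and 4.60 FPKM in Ctrl, a log2 ratio of -0.39 (-0.81 to -0.05). Both groups carry the floxed allele, which the Cre driver recombines in CKO mice.

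Pkm, pyruvate kinase, had the narrowest interval of all members, on the side of Ctrl. It stood at 452 FPKM in CKO and 486 FPKM in Ctrl, a log2 ratio of -0.10 (-0.14 to -0.07), or 1.07-fold lower. The table gives 1 value per gene, so the splice forms of Pkm are not resolved.

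Eno1, the main enolase, was at 179 FPKM in CKO and 163 FPKM in Ctrl, a log2 ratio of 0.13 (0.07 to 0.20). Its near-identical copy Eno1b ran the other way, at 38.1 FPKM in CKO and 47.4 FPKM in Ctrl, a log2 ratio of -0.31 (-0.45 to -0.18). Of 1853 windows of 50 bases along an annotated Eno1 transcript, 56.3% occur unchanged in Eno1b, so reads of these genes can be assigned to either. Summed over both, enolase was at 217 FPKM in CKO and 210 FPKM in Ctrl, and the log2 ratio of summed reads was 0.05 (-0.01 to 0.11), an interval that holds a ratio of 1. The ratio of Eno1 alone is therefore uncertain.

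Gapdh has a copy of the same kind. The pseudogene Gapdh-ps15 was listed at 7.51 FPKM in CKO, about 107 reads, and at the floor of 0.01 FPKM in Ctrl. In Gapdh, 54.7% of 1371 windows of 50 bases occur unchanged in the pseudogene. Adding its reads to those of Gapdh gave a log2 ratio of 0.04 (-0.00 to 0.08). No 50-base window was shared within the pairs Hk1 and Hk2, Aldoa and Aldoc, Ldha and Ldhb, Idh1 and Idh2, or Mdh1 and Mdh2, nor between Pfkl and either of its isozymes.

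Lactate dehydrogenase was almost all Ldha in both libraries. Ldha, which encodes the muscle-type subunit, was at 286 FPKM in CKO and 283 FPKM in Ctrl, a log2 ratio of 0.01 (-0.04 to 0.07). Ldhb, which encodes the heart-type subunit, was at 22.1 FPKM in CKO and 23.0 FPKM in Ctrl. Ldha made up 92.8% of the pair in CKO and 92.5% in Ctrl, and the log2 balance of Ldhb against Ldha was -0.07 (-0.30 to 0.15).

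The pyruvate dehydrogenase complex joins glycolysis to the citrate cycle, and all 4 of its member intervals held a ratio of 1. Pdha1, the regulated alpha subunit of the first enzyme, was at 68.2 FPKM in CKO and 68.6 FPKM in Ctrl. Its partner Pdhb was at 52.3 FPKM in CKO and 50.8 FPKM in Ctrl. Dld, the dehydrogenase shared with other complexes, was at 43.9 FPKM in CKO and 41.9 FPKM in Ctrl. Dlat had the lowest level of the 4, at 11.8 FPKM in CKO and 12.8 FPKM in Ctrl.

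The pentose phosphate genes went both ways by small amounts. G6pdx, which encodes the rate-limiting dehydrogenase of the oxidative arm, was at 39.9 FPKM in CKO and 36.9 FPKM in Ctrl, a log2 ratio of 0.11 (-0.00 to 0.23). Pgd, the second NADPH-forming enzyme, was at 114 FPKM in CKO and 122 FPKM in Ctrl, a log2 ratio of -0.09 (-0.17 to -0.01). The ratios of these NADPH-forming steps thus had opposite signs, and the interval of G6pdx held a ratio of 1.

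In the non-oxidative arm, Taldo1, transaldolase, was at 130 FPKM in CKO and 138 FPKM in Ctrl, a log2 ratio of -0.09 (-0.18 to -0.01). Tkt, transketolase, was at 95.6 FPKM in CKO and 92.3 FPKM in Ctrl. The isomerase Rpia was at 31.6 FPKM in CKO and 31.2 FPKM in Ctrl. The summed level of the 5 genes was 411 FPKM in CKO and 421 FPKM in Ctrl, and the log2 ratio of summed reads was -0.01 (-0.05 to 0.03).

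The citrate cycle held 4 of the 7 members whose intervals lay above a ratio of 1. Its summed level was 675 FPKM in CKO and 651 FPKM in Ctrl, and the log2 ratio of its summed reads was 0.04 (0.00 to 0.07). Its median log2 ratio of 0.01 was no higher than the 0.02 of glycolysis, the pyruvate dehydrogenase complex and the pentose phosphate pathway. The difference between pathways was not tested.

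Isocitrate dehydrogenase accounted for 3 of those 4 genes. Idh2, the mitochondrial NADP-dependent enzyme, was at 50.1 FPKM in CKO and 42.6 FPKM in Ctrl, and its log2 ratio of 0.23 is the highest of all members. Idh1, its cytosolic counterpart, had the lowest level of all members, at 6.17 FPKM in CKO and 6.96 FPKM in Ctrl, from about 161 reads in CKO and 198 in Ctrl, and its interval of -0.48 to 0.14 held a ratio of 1. Idh2 exceeded Idh1 8.12-fold in CKO and 6.13-fold in Ctrl, a log2 balance of 0.39 (0.07 to 0.74).

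The NAD-dependent isocitrate dehydrogenase of the cycle is built of a catalytic alpha subunit with beta and gamma subunits. The beta subunit gene Idh3b was at 70.6 FPKM in CKO and 61.7 FPKM in Ctrl, a log2 ratio of 0.19 (0.08 to 0.31). The gamma subunit gene Idh3g was at 63.8 FPKM in CKO and 55.9 FPKM in Ctrl, a log2 ratio of 0.19 (0.06 to 0.32). The alpha subunit gene Idh3a, at 22.5 FPKM in CKO and 22.7 FPKM in Ctrl, had a log2 ratio of -0.01 (-0.17 to 0.15). Idh3a made up 14.4% of the FPKM of the 3 subunits in CKO and 16.1% in Ctrl.

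The remaining members of the citrate cycle group were near equality except for Suclg1 and Mdh1. Suclg1, the alpha subunit of succinyl-CoA ligase, was at 41.0 FPKM in CKO and 36.0 FPKM in Ctrl, a log2 ratio of 0.18 (0.03 to 0.34). Its ADP-forming partner Sucla2 was at 20.7 FPKM in CKO and 19.8 FPKM in Ctrl. Citrate synthase (Cs), the entry to the cycle, was at 63.7 FPKM in CKO and 64.9 FPKM in Ctrl. None but Suclg1 among these 3 had an interval that excluded a ratio of 1.

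Ogdh, the dehydrogenase of 2-oxoglutarate, was at 73.9 FPKM in CKO and 73.4 FPKM in Ctrl. Fumarase (Fh1) was at 39.4 FPKM in CKO and 40.9 FPKM in Ctrl. Mdh2, the malate dehydrogenase of the cycle, was at 166 FPKM in CKO and 164 FPKM in Ctrl, and these 3 intervals held a ratio of 1. Mdh1, the cytosolic malate dehydrogenase of the malate-aspartate shuttle, was at 57.4 FPKM in CKO and 62.4 FPKM in Ctrl, a log2 ratio of -0.12 (-0.23 to -0.01). The log2 balance of Mdh2 against Mdh1 was 0.14 (0.01 to 0.28).

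**Figure D4:**
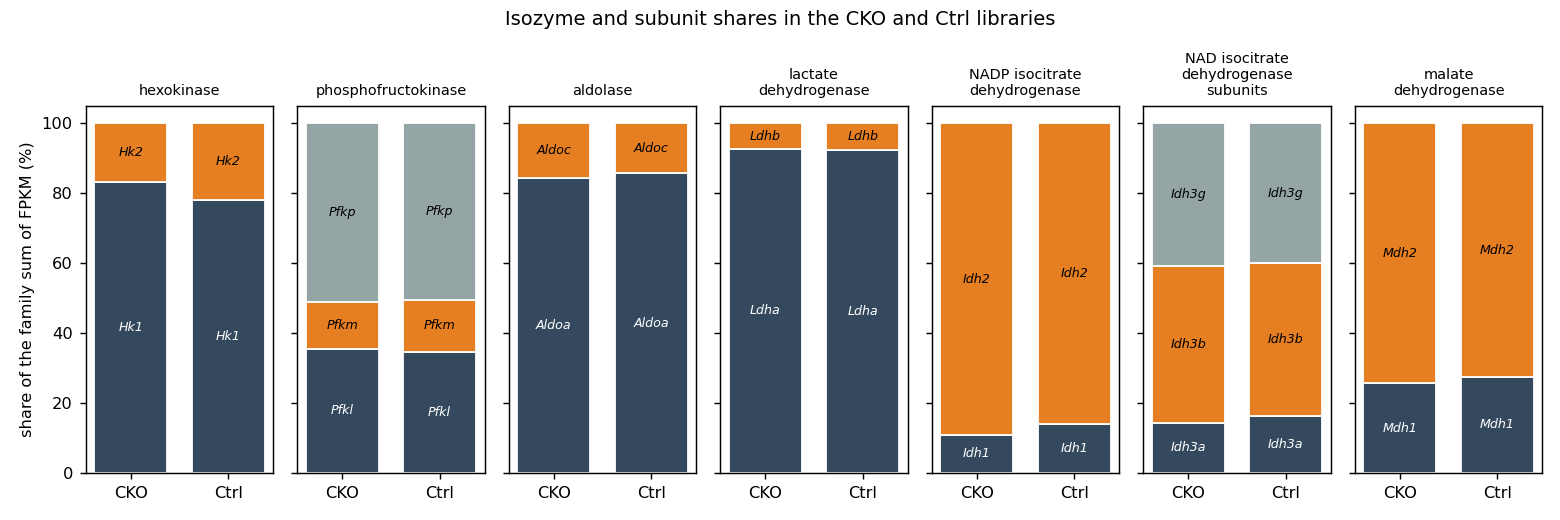
Share of each isozyme or subunit in the summed FPKM of its family (%), with the CKO library left and the Ctrl library right in each panel. The largest shift is in hexokinase, where Hk2 held 16.6% in CKO and 22.0% in Ctrl, and the order of the isozymes within each family is the same in both libraries.

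In 4 of the 7 pairs of isozymes compared, the interval of the balance excluded equality: Hk2 against Hk1, Aldoc against Aldoa, Idh2 against Idh1 and Mdh2 against Mdh1. In the last 2 pairs the balance leaned toward the mitochondrial enzyme in CKO. The intervals are not adjusted for the number of pairs and cover counting error only. Over all measured genes, 16.5% of single-gene intervals lay above a ratio of 1 and 23.6% below it. No such share was computed for other pairs of genes.

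Log2 ratios and transcript length were weakly and negatively correlated, among the members and in the whole table. Across the 37 members the log2 ratio and transcript length correlated with a Spearman rho of -0.26, and of -0.20 over the 36 without Hk2, the longest transcript at 5524 bases. Over all 11667 measured genes the value was -0.35. All these points come from the same pair of libraries. The members were shorter than most, with a median of 1972 bases beside 2776 bases, and the part of length in the small ratios of genes such as Idh3g or Suclg1 was not tested.

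The genes around the enzymes were taken from 9 lists of 112 genes, of which 86 were measured. Of these, 1 was counted as higher and 4 as lower, 5.81% beside 5.32% of all measured genes in either direction, and their median log2 ratio was -0.04.

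Of 11 measured further glycolytic isozymes, 0 were counted either way, and the most abundant was the phosphoglucomutase gene Pgm1 at 35.1 FPKM in CKO and 36.5 FPKM in Ctrl. Of 7 measured regulators of glycolysis and gluconeogenesis, 0 were counted. The most abundant was Pfkfb3, which makes the activator of phosphofructokinase, at 65.4 FPKM in CKO and 56.4 FPKM in Ctrl, a log2 ratio of 0.21 (0.15 to 0.28). These regulators went both ways, with 3 intervals above a ratio of 1 and 3 below it. Of 6 measured transport genes 0 were counted. Their median log2 ratio was -0.18, beside -0.03 over all measured genes, with 2 intervals below a ratio of 1 and 0 above it. The most abundant was Bsg, the chaperone of lactate transporters, at 396 FPKM in CKO and 400 FPKM in Ctrl.

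Of 9 measured regulators and cofactor enzymes of pyruvate dehydrogenase 1 was counted as higher and 0 as lower. It was Lipt1, a lipoyl transferase gene, at 3.05 FPKM in CKO and 1.81 FPKM in Ctrl, a log2 ratio of 0.62 (0.14 to 1.43). The most abundant was Pdk4, a kinase that inactivates the complex, at 46.2 FPKM in CKO and 36.0 FPKM in Ctrl. The median log2 ratio of these regulators was -0.08, beside -0.03 over all measured genes, with 2 intervals above a ratio of 1 and 3 below it. Of 7 further pentose phosphate genes 1 was counted as lower, the ribokinase gene Rbks at 1.19 FPKM in CKO and 2.42 FPKM in Ctrl. Its log2 ratio of -0.79 (-2.09 to -0.12) rested on about 14 reads in CKO and 32 in Ctrl. The most abundant, the lactonase gene Pgls, was at 72.1 FPKM in CKO and 71.1 FPKM in Ctrl.

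Of 14 further citrate cycle genes 0 were counted, and their median log2 ratio was 0.04. Intervals lay above a ratio of 1 for 3 of them and below it for 1. Of 9 shuttle genes 1 was counted as lower, the aspartate-glutamate carrier gene Slc25a13 at 17.3 FPKM in CKO and 26.7 FPKM in Ctrl, a log2 ratio of -0.61 (-0.77 to -0.48). This carrier works in the same shuttle as Mdh1. The list went both ways, with 3 intervals above a ratio of 1 and 3 below it. The most abundant shuttle gene was the aminotransferase gene Got2, at 74.0 FPKM in CKO and 77.0 FPKM in Ctrl.

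Glycolytic genes are known targets of the hypoxia-inducible factor and of Myc, and the measured regulators went both ways. Of 10 measured regulators 0 were counted. Myc, the most abundant, was at 102 FPKM in CKO and 72.6 FPKM in Ctrl, a log2 ratio of 0.49 (0.41 to 0.58). Hif1a, the oxygen-regulated subunit and named after its value was seen, was at 73.5 FPKM in CKO and 93.9 FPKM in Ctrl, a log2 ratio of -0.35 (-0.42 to -0.29). Of 13 measured hypoxia-responsive genes outside metabolism, 0 were counted as higher and 2 as lower, beside 2.29% and 3.03% of all measured genes. The list's median log2 ratio was -0.13, beside -0.03 over all measured genes, with 6 intervals below a ratio of 1 and 2 above it. The counted genes were P4ha1, a collagen prolyl hydroxylase gene, at 2.22 FPKM in CKO and 4.52 FPKM in Ctrl, and the peptide hormone gene Adm at 2.88 FPKM in CKO and 4.89 FPKM in Ctrl. The most abundant of the list, Ndrg1, was at 173 FPKM in CKO and 171 FPKM in Ctrl.

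**Figure D5:**
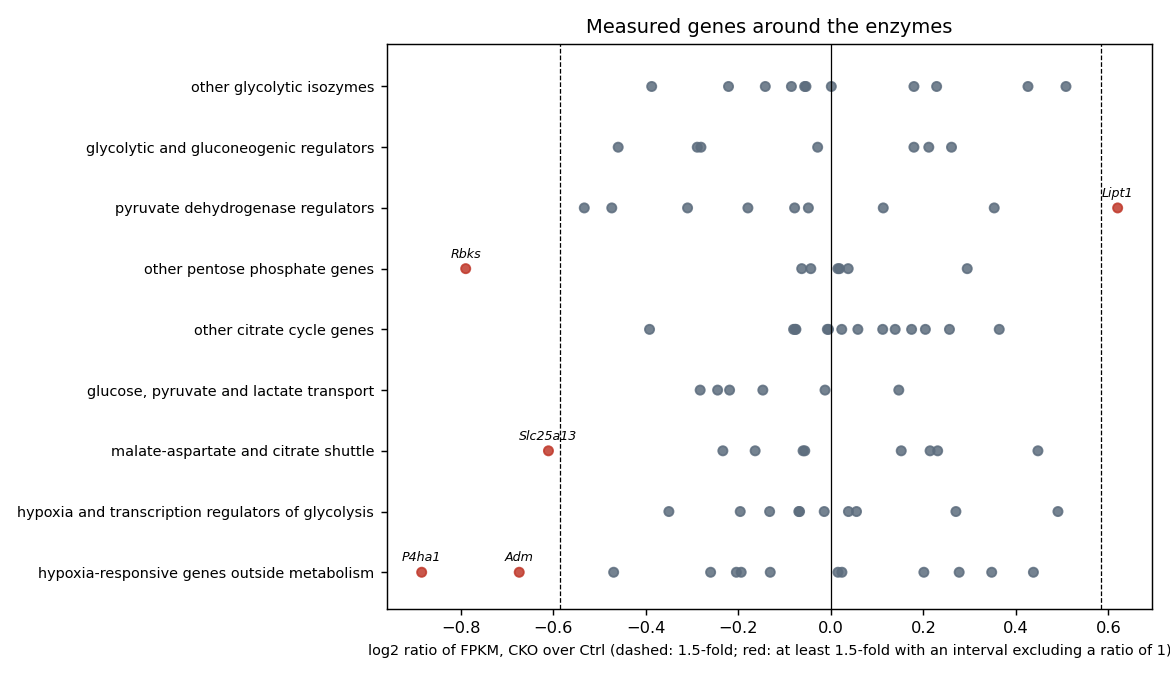
Log2 ratio of FPKM, CKO over Ctrl, of the 86 measured genes of 9 lists around the enzymes (1 point per gene, red where counted); dashed lines, 1.5-fold. The 5 counted genes are Lipt1 above and Rbks, Slc25a13, P4ha1 and Adm below.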

How the data were processed

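RNA sequencing of sorted mammary luminal cells gave 1 library per group (CKO and Ctrl). The submitters' processing notes name HISAT, Bowtie2, RSEM and mm10, without versions or roles. No unit is named in the header, but the deposited values behave as FPKM: times kilobases they sum to 999909 in CKO and 999609 in Ctrl. They carry 2 decimals, and the lowest listed value is 0.01. The deposited log2 fold change equals the log2 ratio of these columns. The deposited p-value and false discovery rate are the authors' test of 1 library against the other.

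Log2 ratios used 0.5 FPKM added and no further scaling. Genes with a mean of at least 1 FPKM counted as measured. The deposited p-values of genes at the floor in 1 library returned whole reads (within 0.01) for 1403 of 1448 genes, and a fit to 8519 genes gave the read totals. Estimated reads were rounded FPKM times kilobases times these totals, and intervals were computed without the added 0.5 FPKM, so they need not be centred on the ratio. Isozyme balances carry exact conditional intervals of the odds ratio. The calling rule was also run on simulated reads that held counting error only, which cannot test variation between libraries. Python 3.11.15, SciPy 1.17.1 and pandas 2.3.3 were used. Seed matches used GENCODE M21 (GRCm38). All members are named. From each list around them the text names counted genes and the most abundant gene (for 1 list that gene is not reported here), and Eno1b, Gapdh-ps15, Eno2 and Hif1a were added after their values or positions were seen. Members and lists were chosen with earlier results of these data known. Alternatives were other pseudocounts, minima, folds, scaling by the median ratio and read ratios implied by the deposited p-values.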

Additional observations from a re-analysis of the deposited data

How the results depend on the processing

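Counts of 0 higher and 0 lower members held with a pseudocount of 0 or 1 FPKM, with scaling by the median ratio and with read ratios implied by the deposited p-values. Using no minimum or one of 5 FPKM could not change them, as all 37 members had a mean of at least 5 FPKM. A fold of 2 could not either, as it is stricter than 1.5-fold. With a smaller fold as the limit (0.32 on the log2 scale), 1 member (Hk2) was lower and 0 were higher. Under these alternatives the log2 ratio of Hk2 ran from -0.53 to -0.50, its balance against Hk1 from -0.50 to -0.46, and the median over all members from 0.02 to 0.03. Scaling by the median ratio of 8342 genes shifted all values by 0.01, and the largest move of any member's log2 ratio under those of pseudocount, scaling and implied reads was 0.02. No paired analysis was possible because each group is 1 library. The precision rests on read depth: the interval of Idh1, the member with the fewest reads, ran from -0.48 to 0.14. Animals, Cre and cell composition are not separated by this design.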
